A study of Rattus norvegicus with 21 samples.

Results

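Genes of peroxisomal enzymes and of peroxins, the proteins that build peroxisomes, were followed in rat liver after short oral dosing with tert-butylphenyl diphenyl phosphate (BPDP), a triaryl phosphate of flame retardant and plasticiser use. The set was a list of 42 gene names of known peroxisomal function. A listed gene was counted as measured where at least 1 probe set of the array named that gene and no other, and it was represented by the brightest such probe set over all arrays. This gave 39 of the 14217 genes measured in the series, 27 of them enzymes or transporters and 12 of them peroxins. Acaa1a and Acaa1b share a single probe set that cannot tell them apart, so that set is described on its own and not counted, and Pipox is not analysed here.

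The groups were male Harlan Sprague-Dawley rats given BPDP in corn oil by gavage on 4 days at 64.6, 129.2, 258.1, 516.2 or 1032.5 mg/kg, with 3 arrays a dose, or corn oil alone as the vehicle, with 6 arrays. All of them, vehicle included, therefore received corn oil by gavage, and their age is not given in the sources used here. Liver RNA of day 5 was labelled with biotin and hybridised to Affymetrix rat arrays, and each value is a log2 signal, so that a step of 1 is a doubling. The treatment protocol speaks of 5 vehicle rats while 6 vehicle arrays are listed, and all 6 were used.

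Peroxisomes shorten very long and branched fatty acids by beta-oxidation and alpha-oxidation, start the synthesis of ether lipids, and break down the hydrogen peroxide that their oxidases make. Their matrix enzymes are made in the cytosol and imported as folded proteins by the peroxins, which also insert membrane proteins and let the organelle divide. In rodent liver peroxisomes multiply when the nuclear receptor PPAR alpha is activated, and enzymes of peroxisomal beta-oxidation are textbook targets of that receptor.

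Calls among the peroxisomal genes were mostly rises, and mostly at the top dose. At 1032.5 mg/kg 13 of the 39 members rose and none fell, which is 33.3% of them, against 4.81% of all genes that rose and 4.14% that fell at that dose (limma, Benjamini-Hochberg adjusted p below 0.05 over all probe sets). The fatty acid enzymes Ehhadh and Ech1 rose 3.88-fold and 3.13-fold, the peroxin Pex11a 2.17-fold and the transporter Abcd2 2.16-fold, while the other 9 rose between 1.22-fold and 1.48-fold. The median log2 change of the members was 0.27 at that dose, and that of all genes -0.01. A positive change was found in 32 of the 39 members, whereas 46.7% of all genes had one, and all 3 arrays of the dose lay above all 6 vehicle arrays in 16 members, against 6.89% of all genes.

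At lower doses fewer members were called. None rose or fell at 64.6 mg/kg by limma, where 0.197% of all genes rose and 0.19% fell, and at an unadjusted p below 0.05 there were 3 higher and 5 lower members, with 4.75% of all genes higher and 4.57% lower at that threshold. At 129.2 mg/kg 1 member rose and none fell, with 0.352% of all genes higher and 0.169% lower. At 258.1 mg/kg 4 members rose and none fell, with 2.23% of all genes higher and 1.33% lower, and at 516.2 mg/kg 5 rose and 1 fell, with 6.3% higher and 2.64% lower. The median log2 change of the members was -0.04, 0.02, 0.08, 0.16 and 0.27 from the lowest dose to the highest. In all, 16 members were called at 1 or more doses and 23 at none. A single member was first called at 129.2 mg/kg, 3 at 258.1 mg/kg, 3 at 516.2 mg/kg and 9 at 1032.5 mg/kg. Of the 39, 24 had their highest dosed mean at 1032.5 mg/kg. For these counts taken over several doses the matching shares of all genes were not computed, so they only describe the members. These comparisons share the same vehicle arrays and are therefore not independent of each other.

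**Figure D1:**
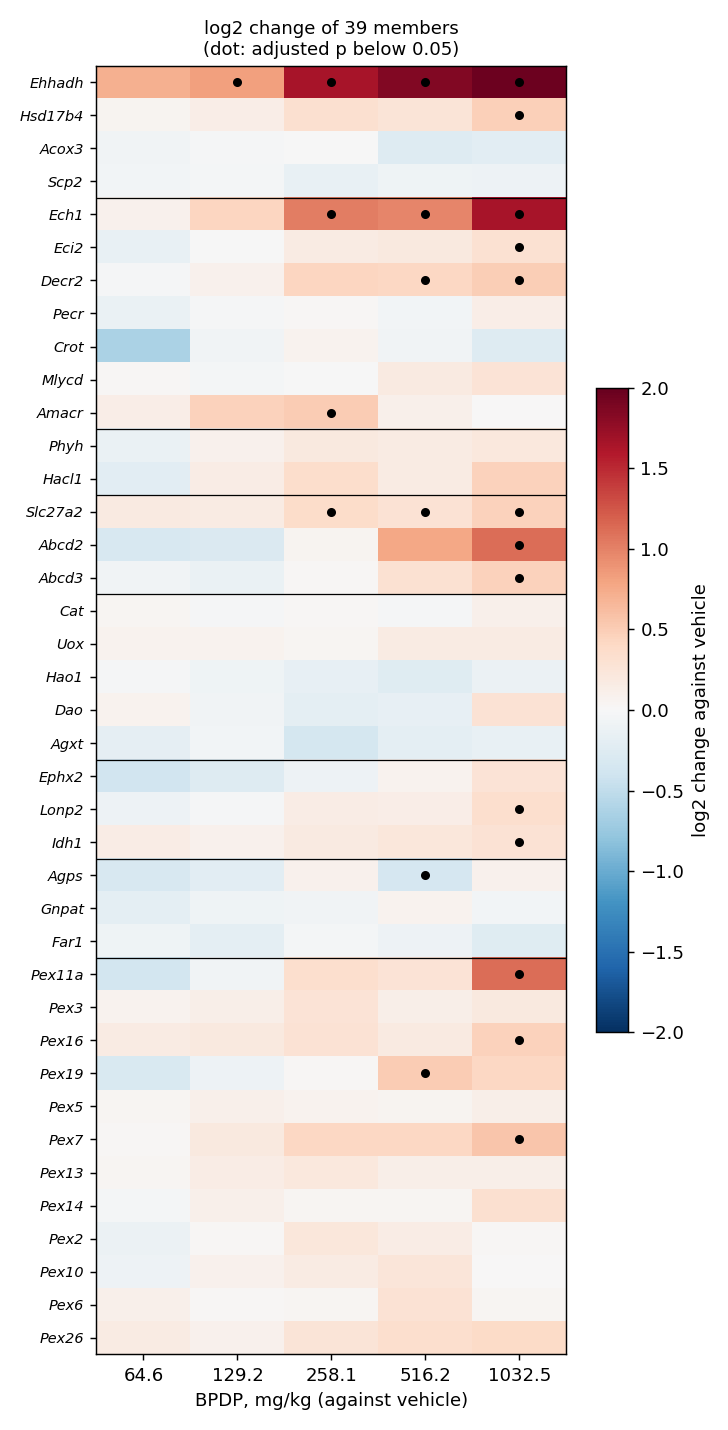
Log2 change of each of the 39 members against vehicle (colour scale, red higher and blue lower in dosed livers) at the 5 doses in mg/kg (columns), with rows grouped by role and a dot where the adjusted p was below 0.05. Dots number 13 in the 1032.5 mg/kg column, none in the 64.6 mg/kg column, and Ehhadh is the only row with a dot from 129.2 mg/kg up.

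The mean over all 39 members, taken on every array as the log2 deviation from each gene's vehicle mean, was -0.05 ± 0.04 at 64.6 mg/kg, 0.04 ± 0.09 at 129.2 mg/kg, 0.18 ± 0.08 at 258.1 mg/kg, 0.19 ± 0.02 at 516.2 mg/kg and 0.31 ± 0.06 at 1032.5 mg/kg (SD, n = 3 each). The 6 vehicle arrays ranged from -0.07 to 0.07 with an SD of 0.05. All 9 arrays of the upper 3 doses lay above that range. Array 1 of 129.2 mg/kg, at 0.149, also lay above it, and above arrays 1 and 2 of 258.1 mg/kg (0.132 and 0.126). Without Ehhadh the mean at 1032.5 mg/kg was 0.27 ± 0.04. Enzymes and transporters averaged 0.31 ± 0.10 and peroxins 0.31 ± 0.04 at that dose.

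**Figure D2:**
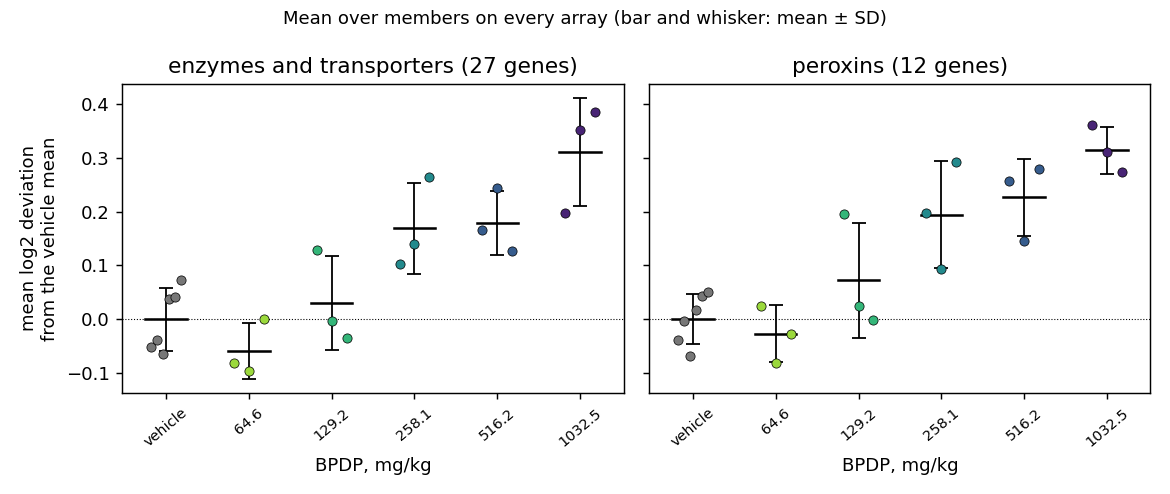
Mean log2 deviation from the vehicle mean over the 27 enzymes and transporters (left) and the 12 peroxins (right) on each array (points) by dose in mg/kg, with bar and whisker for mean ± SD. Both panels have their highest mean at 1032.5 mg/kg, where the enzymes ranged from 0.20 to 0.39 and the peroxins from 0.27 to 0.36. Arrays of lower doses overlap these ranges, with values up to 0.26 for the enzymes and 0.29 for the peroxins at 258.1 mg/kg.

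Among the core enzymes of beta-oxidation, Ehhadh and Hsd17b4 rose and Acox3 and Scp2 were not called on their representative probe sets. Ehhadh encodes the L-bifunctional enzyme, which hydrates and then dehydrogenates the acyl chain. Its vehicle arrays had a lowest, median and highest log2 signal of 11.57, 11.69 and 11.95. The dosed arrays read 12.35, 12.73 and 12.27 at 64.6 mg/kg, 12.69, 12.22 and 12.76 at 129.2 mg/kg, and 13.40, 13.32 and 13.45 at 258.1 mg/kg. At 516.2 mg/kg they read 13.35, 13.69 and 13.72, and at 1032.5 mg/kg 13.05, 13.96 and 14.06. All 15 dosed arrays lay above all vehicle arrays, and the lowest array of the top dose lay below every array of the 2 doses beneath it. The log2 change was 0.72 at 64.6 mg/kg (adjusted p = 0.115), 0.82 at 129.2 mg/kg (adjusted p = 0.0481), 1.66 at 258.1 mg/kg (adjusted p = 1.88e-05), 1.85 at 516.2 mg/kg (adjusted p = 3.54e-06) and 1.95 ± 0.18 at 1032.5 mg/kg (SE, adjusted p = 8.69e-07, limma). The call at 129.2 mg/kg was lost in a fit with cyclic loess, with a variance trend or with an RNA quality covariate (adjusted p between 0.0633 and 0.0723). It was also lost with the replicate number as a block (adjusted p = 0.131). Leaving out any of 15 of the 21 arrays, all 3 of that dose among them, ended it too (adjusted p between 0.0518 and 0.280).

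Hsd17b4 encodes the D-bifunctional enzyme, which runs the same steps on branched and very long chains. It read 12.48, 12.88 and 12.77 at 1032.5 mg/kg, against a lowest, median and highest of 12.13, 12.22 and 12.38 in vehicle livers, with no overlap. The rise was 1.39-fold (log2 change 0.48 ± 0.09, SE, adjusted p = 0.00179). At 258.1 mg/kg the change was 0.31 and at 516.2 mg/kg 0.25, neither of them called. The promoters of both genes are shown because these enzymes catalyse the same steps and moved by unequal amounts. Each sequence runs from 250 bases before to 50 bases after the gene start, from RefSeq on assembly GRCr8, in the direction of the gene. Capitals mark AGGTCA or its reverse complement TGACCT, the motif that nuclear receptors such as PPAR alpha bind in repeats.
Ehhadh, chr11:92746159-92746458, plus strand: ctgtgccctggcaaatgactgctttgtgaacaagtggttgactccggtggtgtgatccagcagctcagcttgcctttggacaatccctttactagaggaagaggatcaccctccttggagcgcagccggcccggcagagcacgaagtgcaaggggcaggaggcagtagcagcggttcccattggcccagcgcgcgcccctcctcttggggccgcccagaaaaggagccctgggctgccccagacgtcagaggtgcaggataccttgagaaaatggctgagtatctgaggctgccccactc
Hsd17b4, chr18:45515177-45515476, plus strand: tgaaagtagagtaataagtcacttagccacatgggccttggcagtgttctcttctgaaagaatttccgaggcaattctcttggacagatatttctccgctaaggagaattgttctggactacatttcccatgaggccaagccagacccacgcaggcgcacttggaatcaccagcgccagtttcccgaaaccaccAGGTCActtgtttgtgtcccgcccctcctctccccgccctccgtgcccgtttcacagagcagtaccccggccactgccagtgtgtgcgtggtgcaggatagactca
The Hsd17b4 promoter holds 1 such motif, AGGTCA, whose first base lies at position -56 from the gene start, and the Ehhadh window holds none.

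The last step of beta-oxidation, thiolysis, is catalysed by the 3-ketoacyl-CoA thiolases of Acaa1a and Acaa1b. Their shared probe set read 13.15, 14.15 and 14.43 at 1032.5 mg/kg, against a lowest, median and highest of 12.29, 12.46 and 12.63 in vehicle livers. All 15 dosed arrays lay above all vehicle arrays, as for Ehhadh, and at the top dose array 1 was again the low one. The signal rose 2.10-fold at 258.1 mg/kg (adjusted p = 0.00158), 2.64-fold at 516.2 mg/kg (adjusted p = 7.65e-05) and 2.74-fold at 1032.5 mg/kg (log2 change 1.46 ± 0.17, SE, adjusted p = 1.90e-05), and which of the genes gave it cannot be told apart.

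Acox3, an acyl-CoA oxidase of the first step, read 7.72, 7.47 and 7.74 at 1032.5 mg/kg, against a lowest, median and highest of 7.44, 7.90 and 8.10 in vehicle livers. Its log2 change was -0.21 with a 95% interval of -0.59 to 0.18. Scp2, which encodes a thiolase fused to a sterol carrier protein, has 2 probe sets that differed in their call. The brighter read 13.92, 13.87 and 13.95 at 1032.5 mg/kg, against 13.96, 13.99 and 14.11 as the lowest, median and highest in vehicle livers, a change of -0.11 (adjusted p = 0.413). The dimmer read 12.45, 12.28 and 12.48, against 12.61, 12.69 and 12.74 in vehicle livers, and fell by 0.28 on the log2 scale (adjusted p = 0.0256). All 3 arrays of the dose lay below all vehicle arrays on both.

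**Figure D3:**
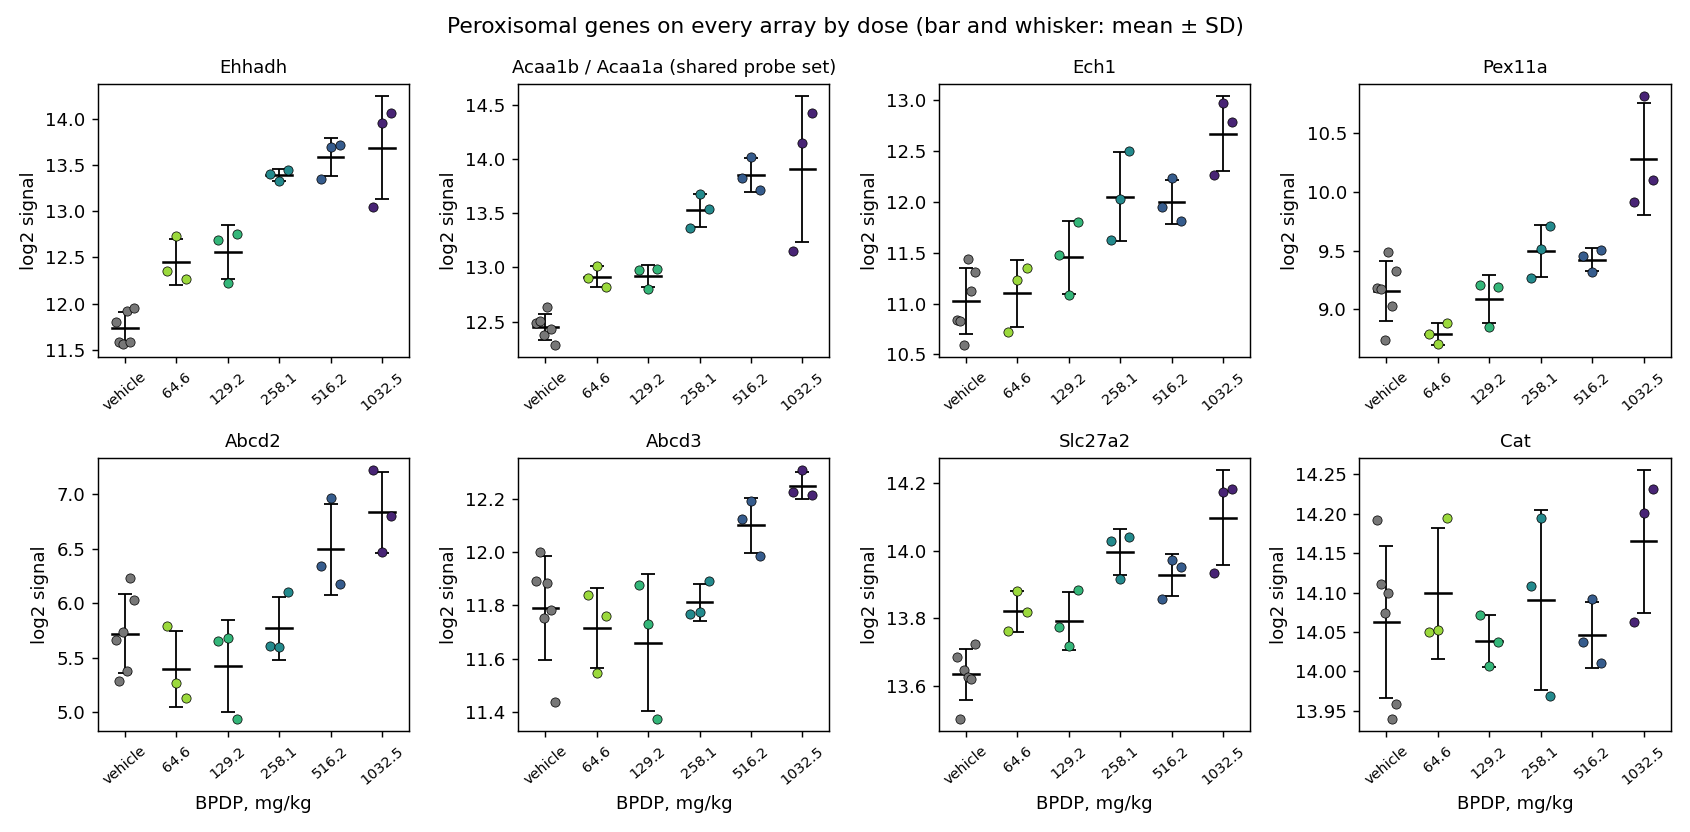
Log2 signal on each array (points) by dose in mg/kg for 8 probe sets of peroxisomal genes, with bar and whisker for mean ± SD and a separate vertical scale in each panel. Ehhadh and the Acaa1b and Acaa1a set lie above vehicle at every dose, Abcd2 and Abcd3 lie wholly above it at 1032.5 mg/kg, and Cat overlaps vehicle at every dose.

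The auxiliary enzymes handle double bonds, chain branches and carnitine esters that the core steps cannot. Of 7 measured, 3 rose at 1032.5 mg/kg and none fell, with a median log2 change of 0.27. Ech1, a dienoyl-CoA isomerase, read 12.26, 12.97 and 12.78 at that dose, against a lowest, median and highest of 10.60, 10.98 and 11.44 in vehicle livers. Its groups did not overlap there, nor at 258.1 mg/kg (11.62, 12.03 and 12.49) or 516.2 mg/kg (11.95, 12.23 and 11.81). Ech1 rose 2.04-fold at 258.1 mg/kg (adjusted p = 0.0124), 1.97-fold at 516.2 mg/kg (adjusted p = 0.0104) and 3.13-fold at 1032.5 mg/kg (log2 change 1.65 ± 0.22, SE, adjusted p = 5.22e-05). Without array 3 of 258.1 mg/kg its call at that dose was lost (adjusted p = 0.139).

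Decr2, the dienoyl-CoA reductase of peroxisomes, read 11.27, 12.01 and 11.94 at 1032.5 mg/kg and 11.68, 11.72 and 11.60 at 516.2 mg/kg, against a lowest, median and highest of 11.13, 11.26 and 11.29 in vehicle livers. Array 1 of the top dose lay inside the vehicle range and the other 2 lay above it, while all 3 arrays of 516.2 mg/kg lay above it. The rise was 1.34-fold at 516.2 mg/kg (adjusted p = 0.0408) and 1.41-fold at 1032.5 mg/kg (adjusted p = 0.0135). Its call at 516.2 mg/kg was lost without any of the 3 arrays of that dose or any of vehicle arrays 1 to 5 (adjusted p between 0.0568 and 0.153). It was also lost with cyclic loess (adjusted p = 0.117) and with the replicate number as a block (adjusted p = 0.101). Eci2, an enoyl-CoA isomerase, read 12.002, 12.17 and 12.15 at 1032.5 mg/kg, against 11.65, 11.84 and 11.93 in vehicle livers, and rose 1.24-fold with no overlap (adjusted p = 0.0159). A further probe set, which names Eci3 beside Eci2, rose 1.25-fold (adjusted p = 0.0139). The Decr2 and Eci2 calls at 1032.5 mg/kg were lost without array 2 or array 3 of that dose (adjusted p between 0.0774 and 0.138).

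Amacr, the racemase that prepares branched acyl-CoAs, rose at 258.1 mg/kg and was not called at any other dose. It read 13.46, 13.25 and 13.43 there, against a lowest, median and highest of 12.62, 12.91 and 13.16 in vehicle livers, a rise of 1.41-fold (adjusted p = 0.0190). At 129.2 mg/kg its arrays were 13.51, 13.17 and 13.31, also all above vehicle, with a log2 change of 0.45 (adjusted p = 0.111). At 1032.5 mg/kg they were 12.86, 12.84 and 12.95, inside the vehicle range, with a change of 0.00 and a 95% interval of -0.23 to 0.24. The call at 258.1 mg/kg was lost without array 1 or array 3 of that dose (adjusted p = 0.125 and 0.117). The remaining 3 were not called at any dose. Pecr, the trans-enoyl-CoA reductase, had a log2 change of 0.13 at 1032.5 mg/kg (95% interval -0.03 to 0.29). Mlycd, malonyl-CoA decarboxylase, had 0.27 (95% interval 0.10 to 0.44, adjusted p = 0.0581), with all 3 arrays above vehicle. Crot, which makes carnitine esters of medium-chain acyl groups, had -0.25 (95% interval -0.58 to 0.08) and its largest deviation at 64.6 mg/kg, -0.64 (adjusted p = 0.120).

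Neither member of alpha-oxidation was called against vehicle at any dose. Phyh, which hydroxylates phytanoyl-CoA, had a log2 change of 0.21 at 1032.5 mg/kg (95% interval 0.02 to 0.39). Hacl1, the lyase that then cleaves it, had 0.46 (95% interval 0.03 to 0.88, adjusted p = 0.230), with all 3 arrays of that dose inside the vehicle range of 10.97 to 12.09.

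All 3 members that bring fatty acids into the organelle or activate them rose at 1032.5 mg/kg. Slc27a2, a very long chain acyl-CoA synthetase, read 13.94, 14.17 and 14.18 at that dose, against a lowest, median and highest of 13.50, 13.64 and 13.72 in vehicle livers. It lay above vehicle on every array of 258.1 mg/kg (14.03, 13.92 and 14.04) and of 516.2 mg/kg (13.86, 13.97 and 13.95) as well. At 64.6 mg/kg all its arrays (13.76, 13.88 and 13.82) also lay above vehicle, while array 2 of 129.2 mg/kg overlapped it. Neither of these doses was called. The rises were 1.28-fold at 258.1 mg/kg (adjusted p = 0.00921), 1.22-fold at 516.2 mg/kg (adjusted p = 0.0206) and 1.38-fold at 1032.5 mg/kg (log2 change 0.46 ± 0.07, SE, adjusted p = 0.000364). Leaving out array 1 or 3 of 258.1 mg/kg, or array 2 or 3 of 516.2 mg/kg, ended the call at that dose (adjusted p between 0.0565 and 0.0892), and leaving out any array did not end it at 1032.5 mg/kg. The call at 516.2 mg/kg was also lost with the replicate number as a block (adjusted p = 0.0616).

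Abcd2 and Abcd3 are acyl-CoA transporters of the peroxisomal membrane. Abcd2 read 7.22, 6.48 and 6.81 at 1032.5 mg/kg and 6.34, 6.96 and 6.18 at 516.2 mg/kg, against a lowest, median and highest of 5.29, 5.70 and 6.23 in vehicle livers. The top dose did not overlap vehicle, 1 array of 516.2 mg/kg did, and at 64.6 and 129.2 mg/kg the arrays ran from 4.94 to 5.79. Abcd2 rose 2.16-fold at 1032.5 mg/kg (log2 change 1.11 ± 0.23, SE, adjusted p = 0.00466), and at 516.2 mg/kg its change was 0.77 (adjusted p = 0.0532). Abcd3 read 12.23, 12.31 and 12.21 at 1032.5 mg/kg, against 11.44, 11.83 and 12.002 in vehicle livers, and rose 1.37-fold with no overlap (adjusted p = 0.0166). Without array 1 of the top dose the calls of Abcd2 and Abcd3 were lost (adjusted p = 0.0517 and 0.0521), as was that of Abcd3 without array 2 (adjusted p = 0.0880). The promoters of the synthetase and of the transporter with the larger rise are shown with the motif in capitals.
Slc27a2, chr3:134257851-134258150, plus strand: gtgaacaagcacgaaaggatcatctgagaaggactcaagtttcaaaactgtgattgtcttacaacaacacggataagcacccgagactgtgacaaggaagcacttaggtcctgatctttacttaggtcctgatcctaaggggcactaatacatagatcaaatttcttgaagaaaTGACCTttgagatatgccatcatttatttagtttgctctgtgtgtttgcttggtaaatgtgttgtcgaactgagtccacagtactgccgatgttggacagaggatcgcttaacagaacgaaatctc
Abcd2, chr7:124191153-124191452, minus strand: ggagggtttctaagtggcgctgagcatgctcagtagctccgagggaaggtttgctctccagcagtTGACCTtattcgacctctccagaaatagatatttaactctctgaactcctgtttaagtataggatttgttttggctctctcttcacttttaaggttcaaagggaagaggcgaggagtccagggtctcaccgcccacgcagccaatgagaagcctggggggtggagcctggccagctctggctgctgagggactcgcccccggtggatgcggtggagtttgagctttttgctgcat
Each holds 1 such motif on the opposite strand, TGACCT, with its first base at position -76 in Slc27a2 and -185 in Abcd2.

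None of the 5 oxidases and glyoxylate enzymes was called at any dose. Catalase (Cat), which breaks down hydrogen peroxide, read 14.06, 14.20 and 14.23 at 1032.5 mg/kg, against a lowest, median and highest of 13.94, 14.09 and 14.19 in vehicle livers. Its groups overlapped, and its log2 change was 0.10 with a 95% interval of -0.05 to 0.25 (adjusted p = 0.528). The upper bound of that interval lies below the lower bound for Ehhadh, 1.58, and for Ech1, 1.20, the members with the largest rises. The interval does overlap that of a called member with a smaller rise, Eci2 (0.15 to 0.46). Uox, urate oxidase, had a change of 0.16 (95% interval 0.01 to 0.32), Dao, D-amino acid oxidase, 0.30 (-0.09 to 0.68), Hao1, the glycolate oxidase, -0.12 (-0.30 to 0.07), and Agxt, which turns glyoxylate into glycine, -0.15 (-0.44 to 0.15).

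Of the 3 other matrix enzymes, 2 rose at 1032.5 mg/kg. Idh1, an NADP-linked isocitrate dehydrogenase shared with the cytosol, read 13.48, 13.54 and 13.59 there, against a lowest, median and highest of 13.16, 13.20 and 13.37 in vehicle livers, and rose 1.22-fold without overlap (adjusted p = 0.0139). Lonp2, the peroxisomal Lon protease, read 12.87, 13.11 and 13.00, against 12.47, 12.69 and 12.82 in vehicle livers, and rose 1.27-fold without overlap (adjusted p = 0.0405). The other Idh1 probe set had a change of 0.19 (adjusted p = 0.454) and was not called. It read between 3.38 and 4.12 over all arrays, under their lower quartiles (4.95 to 5.10), and is too dim to set against the rise. The Idh1 and Lonp2 calls were lost without array 2 or array 3 of that dose, and the Lonp2 call without any of 4 vehicle arrays (adjusted p between 0.0514 and 0.207 over these). Ephx2, the soluble epoxide hydrolase, had a log2 change of 0.27 (95% interval -0.09 to 0.63).

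The 3 members of ether lipid synthesis gave no call at 1032.5 mg/kg, with a median log2 change of -0.05. Agps, which sets the ether bond, fell by 0.33 on the log2 scale at 516.2 mg/kg (adjusted p = 0.0260), where it read 4.95, 5.17 and 4.96, against a lowest, median and highest of 5.15, 5.39 and 5.45 in vehicle livers. That signal is near the lower quartile of the arrays (4.95 to 5.10), 1 of its dosed arrays overlapped vehicle, and the fall was not called without array 1 or array 3 of that dose (adjusted p = 0.154 and 0.123). At 64.6 mg/kg Agps read 5.13, 5.08 and 4.90, all below every vehicle array. It read 5.13, 5.31 and 4.99 at 129.2 mg/kg and 5.35, 5.53 and 5.44 at 258.1 mg/kg, and none of these doses was called. At 1032.5 mg/kg Agps read 5.44, 5.37 and 5.51, a change of 0.08. Gnpat, the acyltransferase of the first step, had a change of -0.05 at 1032.5 mg/kg (95% interval -0.28 to 0.19). The dimmer Gnpat probe set read 6.79, 6.83 and 6.65 at that dose, all below the vehicle range of 6.86 to 7.26. Far1, which supplies the fatty alcohol, had -0.24 (95% interval -0.45 to -0.03, adjusted p = 0.210). On the representative probe sets it was the dimmest member, alone in having a mean under the arrays' lower quartiles.

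All 12 peroxins had a positive log2 change at 1032.5 mg/kg, 3 of them called, with a median of 0.26. Pex11a, which elongates the membrane before peroxisomes divide, rose most. It read 9.92, 10.81 and 10.10 at 1032.5 mg/kg, against a lowest, median and highest of 8.74, 9.18 and 9.49 in vehicle livers. The arrays of 516.2 mg/kg, 9.45, 9.32 and 9.50, overlapped vehicle, and those of 64.6 mg/kg, 8.79, 8.70 and 8.89, lay near its lower end, array 2 of them below every vehicle array. Pex11a rose 2.17-fold at 1032.5 mg/kg (log2 change 1.12 ± 0.17, SE, adjusted p = 0.000204), while its change at 516.2 mg/kg was 0.27 (adjusted p = 0.377). Its other probe set rose by 1.18 on the log2 scale at 1032.5 mg/kg (adjusted p = 0.00366). The step between these doses was 0.85 for Pex11a (95% interval 0.45 to 1.25, adjusted p = 0.222), and limma, the only tool used, called none of the 14217 genes in that comparison (0.0%). At an unadjusted p below 0.05, 7 members were higher and 1 was lower at 1032.5 mg/kg than at 516.2 mg/kg, with 3.18% of all genes higher and 7.17% lower at that threshold. The Pex11a promoter is shown beside those of the enzymes because it rose together with them at the top dose.
Pex11a, chr1:143096442-143096741, minus strand: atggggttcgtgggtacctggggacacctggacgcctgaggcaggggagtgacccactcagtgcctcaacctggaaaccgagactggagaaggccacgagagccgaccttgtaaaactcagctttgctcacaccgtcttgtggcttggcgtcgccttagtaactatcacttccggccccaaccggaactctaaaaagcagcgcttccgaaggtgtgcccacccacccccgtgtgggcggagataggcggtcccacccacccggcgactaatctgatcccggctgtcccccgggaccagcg
It holds no AGGTCA or TGACCT in this window.

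Pex3, Pex16 and Pex19 together place proteins in the peroxisomal membrane. Pex16 read 9.75, 9.97 and 9.78 at 1032.5 mg/kg, against a lowest, median and highest of 9.18, 9.39 and 9.49 in vehicle livers, and rose 1.38-fold without overlap (adjusted p = 0.000858). Its other, dimmer probe set had a change of -0.01 with a 95% interval of -0.17 to 0.15, so the 2 sets differed. On the brighter set all arrays of 64.6, 129.2 and 258.1 mg/kg, with minima of 9.51, 9.54 and 9.56, also lay above all vehicle arrays. None of these doses was called, and array 3 of 516.2 mg/kg (9.43) overlapped vehicle. Pex19, the receptor for membrane proteins, read 9.55, 8.96 and 9.28 at 516.2 mg/kg and 9.10, 9.14 and 9.29 at 1032.5 mg/kg, against 8.62, 8.70 and 9.001 in vehicle livers. Array 2 of 516.2 mg/kg overlapped vehicle and no array of 1032.5 mg/kg did. Pex19 rose 1.42-fold at 516.2 mg/kg (adjusted p = 0.0274) and had a change of 0.42 at 1032.5 mg/kg (adjusted p = 0.0665). The call at 516.2 mg/kg was lost without array 1 or 3 of that dose or array 3 or 4 of vehicle (adjusted p between 0.0546 and 0.234). Both further probe sets that name Pex19, beside LOC102548286, overlapped vehicle and were not called at 516.2 mg/kg, with changes of 0.06 and, on the set brighter than the representative, 0.12 (adjusted p = 0.893 and 0.575), so the Pex19 rise rests on a single probe set. Pex3 had 0.20 (95% interval -0.01 to 0.41) at 1032.5 mg/kg.

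Among the import receptors and docking proteins, Pex7 rose and Pex5, Pex13 and Pex14 were not called. Pex7, the receptor for the amino-terminal targeting signal that thiolase and Phyh carry, read 10.02, 9.59 and 9.61 at 1032.5 mg/kg, against a lowest, median and highest of 8.99, 9.19 and 9.33 in vehicle livers. The groups did not overlap and the rise was 1.48-fold (log2 change 0.56, adjusted p = 0.0154). Without array 1 of that dose the call was lost (adjusted p = 0.136). Pex5, the receptor for the more common carboxy-terminal signal, had 0.12 (95% interval -0.04 to 0.27), and Pex13 and Pex14 of the docking complex had 0.12 (-0.09 to 0.33) and 0.32 (0.12 to 0.53, adjusted p = 0.0562). The other, dimmer Pex5 probe set read 7.04, 7.11 and 7.18 at 516.2 mg/kg, all below the vehicle range of 7.25 to 7.55. At 1032.5 mg/kg that set read 7.39, 7.56 and 7.28.

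None of the 4 peroxins that ubiquitinate and recycle the receptors was called at any dose, with a median log2 change of 0.03 at 1032.5 mg/kg. Pex2 and Pex10, of the ubiquitin ligase complex, had 0.03 (95% interval -0.18 to 0.24) and 0.01 (-0.25 to 0.27). The other, dimmer Pex2 probe set read 8.90, 8.51 and 8.72 at 1032.5 mg/kg, against a range of 8.28 to 8.68 in vehicle livers. Pex6, an ATPase of receptor export, had 0.03 (-0.17 to 0.24), and Pex26, its membrane anchor, 0.38 (0.13 to 0.62, adjusted p = 0.0597).

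Promoters were at hand for 35 of the 39 members, and 33469 rat promoters of the same length served as the comparison. On either strand AGGTCA was found in 10 of the 35 (28.6%) and in 16.2% of all promoters. It was found in 5 of the 12 members that rose at 1032.5 mg/kg and have a promoter, Abcd2, Eci2, Hsd17b4, Lonp2 and Slc27a2, and in 5 of the 23 others, Agps, Amacr, Cat, Dao and Uox. Its looser tandem form with 1 base between, searched as AGGNCANAGGNCA on both strands, was in 0 of the 35 and in 0.415% of all promoters. This longer pattern contains AGGTCA wherever an N after AGG is T. The letters GGGCGG were in 25 of the 35 (71.4%) and in 33.1% of all, and TATAAA in 1, Pex14, and in 14.2% of all. Members were counted by gene, with a match in any promoter of that gene, and the comparison by promoter. The comparison was not limited to genes measured on the array, so the shares are not on a like basis. These counts describe this window alone.

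Dbp and Nr1d1, transcription factors of the circadian clock, differed between all dosed groups and vehicle, so a comparison among dosed livers was also made. Dbp was 21.5-fold higher at 64.6 mg/kg and 27.6-fold higher at 1032.5 mg/kg, and Nr1d1 7.02-fold and 4.32-fold higher, all called. The mean of the 1032.5 and 516.2 mg/kg groups was therefore set against the mean of the 64.6 and 129.2 mg/kg groups, in which contrast Dbp had a log2 difference of 0.27 (adjusted p = 0.506) and Nr1d1 of -0.47 (adjusted p = 0.247). In it 9 of the 39 members were higher and none lower, against 2.33% of all genes higher and 1.17% lower, with a median log2 difference of 0.15. They were Abcd2 at 1.25 (adjusted p = 0.000756), Ehhadh at 1.13 (adjusted p = 0.000162), Ech1 at 1.06 (adjusted p = 0.00168) and Pex11a at 0.91 (adjusted p = 0.000621). Pex19 at 0.67 (adjusted p = 0.00133), Abcd3 at 0.49 (adjusted p = 0.00525), Decr2 at 0.43 (adjusted p = 0.0209), Eci2 at 0.33 (adjusted p = 0.00478) and Hsd17b4 at 0.27 (adjusted p = 0.0486) completed them. The Hsd17b4 call was lost on leaving out any of 18 of the 21 arrays (adjusted p between 0.0533 and 0.118) and with cyclic loess (adjusted p = 0.101). It was also lost with the replicate number as a block (adjusted p = 0.0627) and in a fit limited to these doses (adjusted p = 0.0974). That of Decr2 was lost without array 3 of 64.6 mg/kg, array 2 of 129.2 mg/kg or array 2 or 3 of 1032.5 mg/kg (adjusted p between 0.0550 and 0.0643), with cyclic loess (adjusted p = 0.0519) and in the limited fit (adjusted p = 0.0587). The shared thiolase probe set was higher by 0.96 (adjusted p = 0.000604). The sets that name a second gene beside Pex19 had differences of 0.11 and 0.08 in this contrast (adjusted p = 0.768 and 0.687), and the set of Eci3 and Eci2 0.15 (adjusted p = 0.256), none of them called.

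Of the 13 members that rose against vehicle at 1032.5 mg/kg, 8 were thus also called with no vehicle array in the contrast. The other 5, Lonp2 (0.30), Idh1 (0.14), Slc27a2 (0.21), Pex7 (0.38) and Pex16 (0.14), had positive log2 differences there with adjusted p between 0.0508 and 0.285. The contrast with vehicle and the contrast among dosed livers share the 1032.5 mg/kg arrays. A straight line over the 5 dose steps of the 15 dosed arrays called 12 members rising and none falling, with 2.28% of all genes rising and 1.13% falling. These were the same 9 and Phyh, Ephx2 and Lonp2, whose slopes were 0.08, 0.16 and 0.10 log2 units a step (adjusted p = 0.0493, 0.0280 and 0.0279). Leaving out array 2 of 64.6 mg/kg or array 3 of 1032.5 mg/kg reduced the number to 7. Of the 15 dosed arrays, 13 ended the slope call of Phyh and 13 that of Decr2 when left out, 11 that of Hsd17b4, 5 that of Lonp2 and 3 that of Ephx2 (adjusted p between 0.0511 and 0.149). Cyclic loess also ended the slope calls of Hsd17b4 and Decr2 (adjusted p = 0.0897 and 0.0776). The replicate number as a block ended that of Phyh (adjusted p = 0.0528). Of the 12 rising members, Ehhadh, Hsd17b4 and Ech1 had a mean at 64.6 mg/kg above the vehicle mean, and the others one below it. Ephx2 averaged 6.94 there against 7.33 in vehicle livers, Pex11a 8.79 against 9.16, Abcd2 5.40 against 5.72 and Pex19 8.44 against 8.76. A difference among dosed livers is therefore not the same as a rise above vehicle. The other Phyh probe set and the shared Pex19 and Eci2 sets had no slope call (adjusted p between 0.143 and 0.593). The dimmest Crot probe set had a called rising slope of 0.10 log2 units a step (adjusted p = 0.0365). The representative Crot set had 0.08 (adjusted p = 0.499) and the remaining one 0.04 (adjusted p = 0.851), neither of them called.

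**Figure D4:**
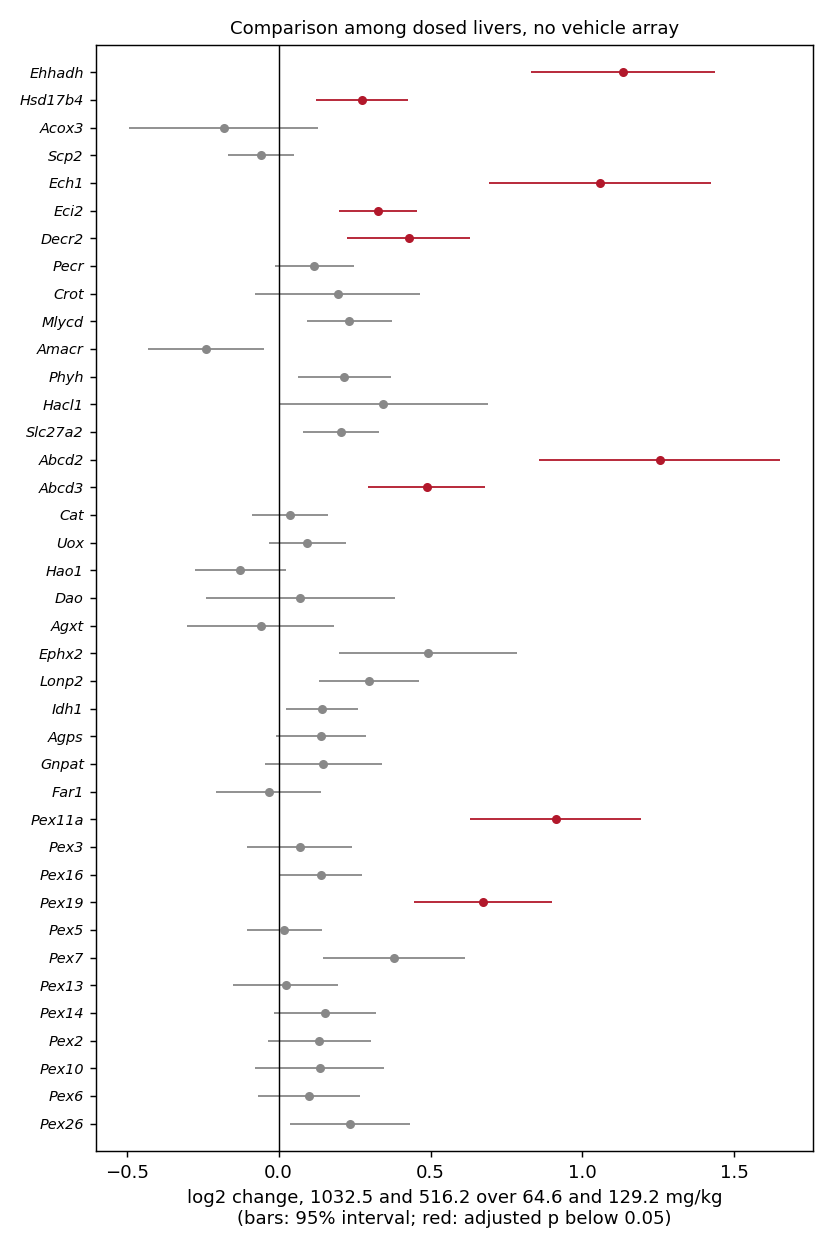
Log2 change of each member between the mean of the 1032.5 and 516.2 mg/kg groups and the mean of the 64.6 and 129.2 mg/kg groups (points), with 95% intervals (bars) and adjusted p below 0.05 in red. The 9 red points run from 0.27 for Hsd17b4 to 1.25 for Abcd2, all to the right of 0.

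Genes outside the list of members were taken from 2 further lists. Of 36 measured genes of other peroxisomal proteins, 10 rose and 1 fell at 1032.5 mg/kg, with a median log2 change of 0.12. The acyl-CoA thioesterases Acot4 and Acot8 rose 2.49-fold and 1.64-fold, the nudix hydrolase of coenzyme A Nudt7 1.86-fold, and the acyl-CoA dehydrogenase Acad11 1.70-fold (adjusted p between 0.000177 and 0.000441). Hao2, a 2-hydroxy acid oxidase, fell by 1.30 on the log2 scale (adjusted p = 0.000346). In the contrast among dosed livers 8 of the 36 were higher and 1 lower. Of 26 measured genes of the PPAR alpha pathway outside the peroxisome, 12 rose and 2 fell at 1032.5 mg/kg, with a median of 0.32, and 10 were higher and none lower among dosed livers. The rises included Cidea by 2.42, Aqp7 by 1.98 and Vnn1 by 1.80 on the log2 scale, and Acot1, which read 9.74 ± 2.11 at 1032.5 mg/kg and 3.60 ± 0.12, near the array floor, in vehicle livers (SD, n = 3 and 6). Plin2, a lipid droplet coat protein, fell by 1.38 and Pdk4, a kinase of pyruvate dehydrogenase, fell by 1.07.

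Cell type markers were measured in the same bulk RNA, in which fewer cells of a type and less RNA per cell cannot be told apart. Of 9 hepatocyte markers none rose and 1 fell at 1032.5 mg/kg (Apoc3, which fell by 0.25 on the log2 scale), their mean running from 13.93 to 13.96 over the dosed arrays and from 14.04 to 14.11 over the vehicle arrays. Of 8 Kupffer cell markers 2 fell (Cd163 fell by 0.79 and Adgre1 fell by 0.73), with means of 9.09 to 9.46 in dosed and 9.56 to 10.07 in vehicle livers. Of 10 stellate cell markers 4 fell (Pdgfrb fell by 0.95 and Pdgfra fell by 0.78), with means of 7.26 to 7.42 against 7.57 to 8.09. Of 9 lymphocyte markers 2 fell (Cd8a fell by 0.72 and Ms4a1 fell by 0.48), with means of 5.53 to 5.57 against 5.70 to 5.97, and of 7 endothelial markers 1 fell (Stab1, which fell by 0.56), with means of 8.50 to 8.77 against 8.51 to 9.21. Both red cell markers fell (Hbb fell by 2.01 and Alas2 fell by 1.90), with means of 8.04 to 9.08 against 9.78 to 11.21. None of 3 neutrophil markers was called, with means of 5.13 to 5.29 against 5.35 to 7.41, and 1 of 5 cholangiocyte markers rose (Epcam, by 0.71), with means of 6.52 to 6.65 against 6.33 to 6.73. The log2 signals have a floor above 0, so whether a cell type was absent cannot be read from them. The part of cell makeup in the peroxisomal changes was not tested.

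Array 1 of 1032.5 mg/kg was the lowest of its group in 10 of the 13 members that rose there. The log2 signal at the 5' end of the control transcripts minus that at the 3' end, a measure of RNA quality, was -1.96 on that array and -1.37 and -1.28 on the others of the dose, with -1.54 ± 0.37 over the dose (SD, n = 3) and -1.95 ± 0.29 over vehicle (SD, n = 6). With this measure as a covariate 15 members were called higher at 1032.5 mg/kg. Leaving out array 1, 2 or 3 of that dose gave 10, 8 and 10. Array medians ran from 6.30 to 6.39 and correlations between arrays from 0.984 to 0.995, and vehicle array 6 had the lowest mean correlation with the other vehicle arrays, 0.989, with 0.993 as the next lowest.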

How the data were processed

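Liver RNA (100 ng) of 21 arrays was labelled with biotin and hybridised, per the labels' protocols. The authors deposited log2 signals, 1 for each probe set and array, made by RMA per the submitters' processing notes, with software and version not given in the sources used here. They were used as deposited. Arrays carry no read depth, and their number, 3 a dose and 6 for vehicle, limits precision. The labels do not tie each array to an animal beyond the protocol's dose groups of rats, so p-values measure the spread between these samples.

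After removal of 57 array controls, 31042 probe sets were tested. The platform's annotation gives a single gene for 20826, more than 1 for 436 and no gene for 9780. Symbols were updated from the RefSeq gene table of assembly GRCr8 (20758 by Entrez identifier, 2 by accession, 66 kept). limma 3.58.1 in R 4.3.3 (lmFit, eBayes) was fitted to all 21 arrays with a coefficient per group. P-values are two-sided and Benjamini-Hochberg adjusted over all probe sets, with a threshold of 0.05. The fit over dose steps used the 15 dosed arrays. The code was tested on simulated data.

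The members, lists and tests were chosen with earlier results of these data known. Every measured member is named, with values on each array for those called from 258.1 mg/kg up or among dosed livers. From each further list up to 4 rises and 4 falls, and up to 2 called markers per cell type, are named. The rule gave no values for genes known only from shared probe sets. The thiolase, Eci3 and shared Pex19 sets were added after their values were seen. So were, on single arrays, Cat, Acox3 and the other probe sets of Scp2, Gnpat, Pex2 and Pex5, and the slopes of the Crot sets. Protein sequences, also in the rule, are not used here, and promoters from RefSeq (250 bases before to 50 after the start) are shown instead. Samples with the same replicate number in different groups had a median correlation of deviations of 0.01 over 45 pairs (-0.28 to 0.39). With other numbers it was -0.01 over 90 pairs (-0.44 to 0.30). Of 18 arrays, 10 had their best match in another group under the same number. Whether the numbers pair samples cannot be told from this, and a fit with a replicate block is given among the alternatives. Alternatives were other scalings, variance settings, array weights, only the compared groups, an added 1.5-fold minimum, mean or other probe sets, a replicate block, leaving out each array, and an RNA quality covariate, the last chosen after seeing the data.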

Additional observations from a re-analysis of the deposited data

Results flagged for a closer look

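Among the 39 members, the 6 vehicle arrays of Agps included 1, replicate 3, that stood apart at the low end: its gap to the next array was 0.741 of the whole range, past the 95% critical value of Dixon's test for 6 samples. Chance gives about 1 such case in 20 groups, and 39 were examined. On the representative probe sets, Agps was also the only member that fell at any dose.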

How the results depend on the processing

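With the replicate block, 0, 0, 5, 4 and 10 members were higher from 64.6 to 1032.5 mg/kg and none was lower at any dose. Among dosed livers 9 were higher, but not the same 9, since Hsd17b4 lost its call (adjusted p = 0.0627). By slope 11 rose. The Decr2, Lonp2, Idh1 and Abcd3 calls at 1032.5 mg/kg were lost (adjusted p between 0.0560 and 0.170). So were those of Decr2 and Slc27a2 at 516.2 mg/kg (adjusted p = 0.101 and 0.0616). The median change at 516.2 mg/kg was then 0.21. The count higher at 129.2 mg/kg, 1 as reported, was 0 with cyclic loess, a variance trend or the RNA quality covariate and 2 with array weights, which also gave 1 at 64.6 mg/kg, 2 lower at 516.2 mg/kg, a median of 0.29 at 1032.5 mg/kg and 14 higher among dosed livers. A minimum of 1.5-fold left 2, 2 and 4 higher at 258.1, 516.2 and 1032.5 mg/kg, none lower (0) at 516.2 mg/kg, 5 among dosed livers and 7 by slope. Subtracting array medians gave 9 higher and 0 lower at 516.2 mg/kg, with medians of 0.21 there and 0.29 at 1032.5 mg/kg; cyclic loess gave 0 lower and medians of 0.0943 and 0.24, and a fit of only the compared groups 0 lower. At 1032.5 mg/kg the covariate gave a median of 0.22, and averaging probe sets gave 0.24 and 1 lower.

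Leaving out each array gave 0 to 1 members higher and 0 to 1 lower at 64.6 mg/kg, 0 to 1 higher at 129.2 mg/kg, 1 to 6 at 258.1 mg/kg (2 without array 1 and 1 without array 3 of that dose), 2 to 6 higher and 0 to 2 lower at 516.2 mg/kg (3 without array 1 of that dose or vehicle array 4, 2 without array 3), 8 to 16 at 1032.5 mg/kg, 7 to 11 among dosed livers and 7 to 12 by slope. Medians then ran from -0.07 to -0.02, -0.0499 to 0.0639, 0.08 to 0.13, 0.13 to 0.17 and 0.19 to 0.27 from the lowest dose up. Ehhadh, Hsd17b4, Ech1, Slc27a2, Pex11a and Pex16 kept their calls at 1032.5 mg/kg with every array left out and under every other alternative, except that the 1.5-fold minimum leaves out Hsd17b4, Slc27a2 and Pex16 and that the other Pex16 probe set was not called. A fit of only the compared groups ended the calls of Eci2, Decr2, Lonp2 and Idh1 at 1032.5 mg/kg (adjusted p between 0.0558 and 0.0716), of Amacr at 258.1 mg/kg (0.0561) and of Agps at 516.2 mg/kg (0.0559). Cyclic loess ended those of Lonp2 at 1032.5 mg/kg (0.0593) and Agps (0.0948), array medians that of Agps (0.0554), averaging probe sets that of Idh1 (0.0580), and the covariate that of Pex19 at 516.2 mg/kg (0.0557). The averaged Idh1 value includes the probe set that lies under the arrays' lower quartiles. The Amacr change at 1032.5 mg/kg, 0.00 as reported, turned to -0.000600 with cyclic loess, -0.0284 without vehicle array 3, -0.0478 without vehicle array 5 and -0.0304 without array 3 of the dose (range with each array left out -0.0478 to 0.0611), and that of Pex16 to -0.00957 on its other probe set. The causes were not tested.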
